A study of Mus musculus with 26 samples.

Results

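Translational efficiency (TE) is the number of ribosome footprints on an mRNA relative to the amount of that mRNA, and its change after 7 h of oxidative stress is described here for NIH3T3 cells, a mouse embryonic fibroblast line long kept in culture. The change was measured as the difference in footprints between 7 h of H2O2 and the control, minus the same difference in polyA-selected RNA. It rests on 8 of the 26 libraries of the series, 2 replicates in each of 4 groups: footprints and RNA after 7 h of H2O2, and footprints and RNA of the control. The series as a whole exposed the same line to heat, to H2O2 and to KCl, an osmotic stress. The control was the unstressed group that H2O2 and KCl share. All groups used here were the one cell line, with no genetic change named in the labels. The labels give no dose of H2O2, and nothing states whether replicates were separate cultures. The p-values therefore measure only the spread between these libraries, which may be technical.

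In ribosome profiling, RNA outside ribosomes is digested, and the fragments that ribosomes protect are sequenced and counted per gene. The mRNAs of ribosomal proteins and of several translation factors carry a terminal oligopyrimidine (TOP) motif, which starts with a cytosine at the first transcribed base and continues with pyrimidines. Their translation depends on the kinase mTORC1 and on the RNA-binding protein LARP1, and it is known to be turned down when nutrients are short or under many stresses. A second control acts through phosphorylation of the initiation factor eIF2. It lowers translation in general, while mRNAs with short upstream reading frames, such as Atf4, can escape it.

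Footprint libraries held 3171340 to 3925402 expected counts in the 4 libraries compared and RNA libraries 24606586 to 45244430. Fibroblast markers (10 genes, among them Col1a1 and Sparc, 2 of them under 1 TPM) summed to 10140 TPM in each control RNA library and to 4684 and 4693 TPM at 7 h. TPM scales each library to the same total after dividing by transcript length. Immune markers (7 genes) summed to 20.6 and 18.4 TPM in the controls and 101 and 104 TPM at 7 h. Nearly all of that came from Cd14, at 10.6 and 8.68 against 56.1 and 61.2 TPM, and Cd68, at 9.98 and 9.59 against 44.7 and 42.6 TPM. The leukocyte marker Ptprc and the T cell marker Cd3e were at 0 in both control libraries, and Cd3e also at 7 h. Epithelial markers summed to at most 77.3 TPM, and endothelial and muscle or fat markers to at most 10.4 TPM. All libraries came from the one cell line. Whether marker RNA changed in all its cells or only in some cannot be told from these bulk samples. The part of the marker changes in TE was not tested.

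Of 10457 genes tested, TE rose in 529 (5.06%) and fell in 460 (4.4%) at 7 h of H2O2 by edgeR's quasi-likelihood F test (Benjamini-Hochberg adjustment, threshold 0.05), in all 989 genes or 9.46%. In the same model, footprints were called different for 4669 genes (44.6%), higher for 24.6% and lower for 20.1%. RNA was called different for 6239 (59.7%), higher for 30.4% and lower for 29.3%. The median change in TE over all genes was 0.075 on the log2 scale, with the 5th and 95th percentiles at -0.84 and 1.06. Each assay was scaled to its own libraries, so a rise or fall in TE is relative to the other mRNAs. A general change in translation, up or down, cannot be seen in these values. At a change of at least 1 on the log2 scale, TE rose in 272 genes (2.6%) and fell in 222 (2.12%). The balance of rises and falls depended on the processing. With library totals in place of TMM factors, 698 rose and 367 fell. On the log2(TPM + 1) scale 541 rose and 200 fell, and the median of all genes was 0.22. DESeq2 gave 779 rises and 640 falls. Falls outnumbered rises with limma voom (281 higher, 361 lower) and with no expression filter (453 and 531). They also did with a replicate block by group and number (161 and 217). Leaving out footprint 7 h replicate 1 left 545 calls, RNA 7 h replicate 1 or 2 left 518 or 500, and RNA control replicate 1 or 2 left 484 or 505.

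The calls combined footprints and RNA in several ways. Among genes with higher TE, 212 had more footprints on more RNA, 129 had more footprints on RNA that was not called, and 115 had less RNA with footprints not called. A further 37 had more footprints on less RNA, and in 35 both fell. Among genes with lower TE, 148 had more RNA with footprints not called, 125 had fewer footprints on RNA that was not called, and 98 had fewer footprints on more RNA. Both rose in 53 and both fell in 36. The plot of footprint against RNA changes places 79 of the 82 ribosomal protein mRNAs in the corner of more RNA and fewer footprints, and the other 3 (Rpl38, Rpl39 and Rps27l) above 0 in both.

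**Figure D1:**
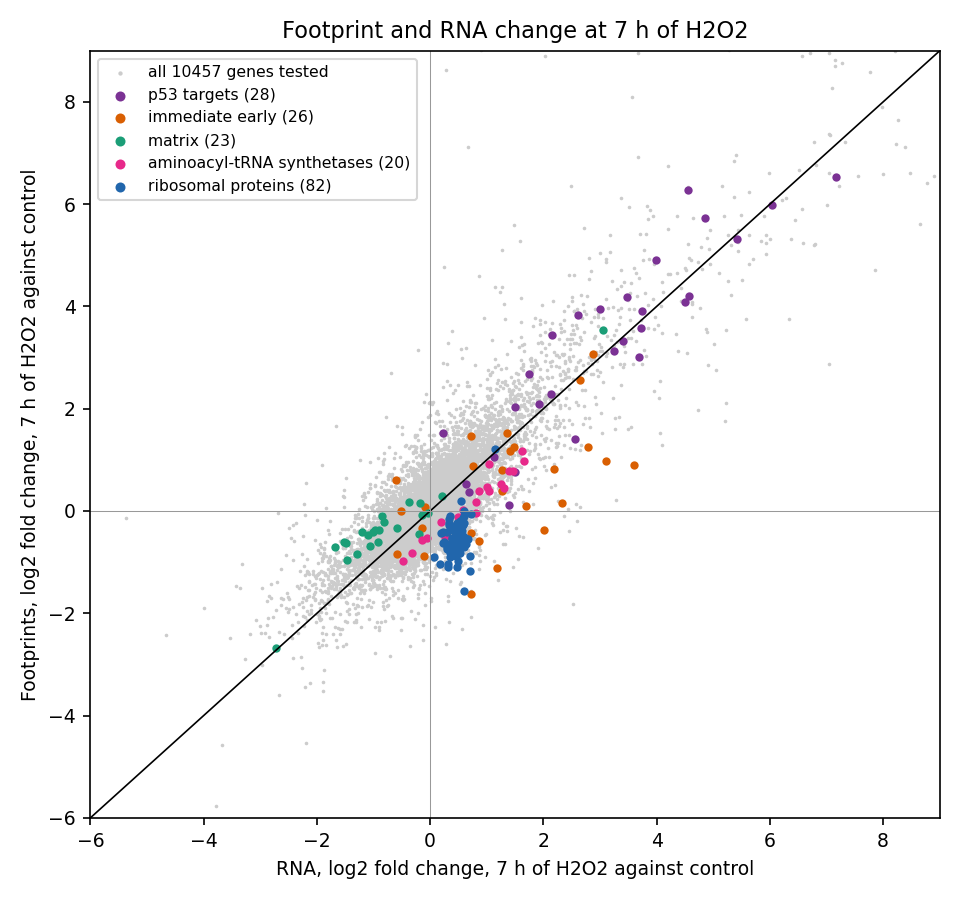
Log2 fold change in footprints (y axis) against log2 fold change in RNA (x axis) at 7 h of H2O2 for each gene tested, with 5 gene groups in colour and the line of equal change in black. Genes below the line had lower TE. All 82 ribosomal proteins have RNA above 0, and 79 of them have footprints below 0, and the p53 targets lie along the line at large changes. For 59 genes the values are outside the axes.

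Of the gene lists examined, ribosomal proteins had the most members with lower TE. TE fell for 37 of 48 tested mRNAs of the large subunit and for 27 of 34 of the small subunit, where 4.4% of all genes fell, and it rose for none of either. The median changes were -1.04 for the large and -1.10 for the small subunit. The RNA rose for 55 of these 82 genes and fell for none, with a median of 0.45, while footprints fell for 59 and rose for 1, with a median of -0.61. Ribosomal protein mRNAs took 6.77% and 7.83% of footprint counts in the control and 4.82% and 5.36% at 7 h. Their share of RNA counts moved the other way, from 4.28% and 4.33% to 5.83% and 5.65%. In both assays the groups did not overlap.

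Rps20, a protein of the small subunit head, had 426 and 322 footprint CPM (counts scaled to the library total) in the control and 136 and 197 at 7 h. Its RNA was at 279 and 287 CPM in the control and 460 and 467 CPM at 7 h. Footprints were lower and RNA higher in both stressed libraries, and TE fell by 1.88 ± 0.27 (SE) on the log2 scale (adjusted p = 0.000423, edgeR quasi-likelihood test, 2 libraries per group). Rplp0, the anchor of the ribosomal stalk, had 1033 and 1595 footprint CPM in the control and 600 and 622 at 7 h. RNA of Rplp0 went from 1416 and 1346 CPM to 1946 and 1894 CPM, again without overlap, and TE changed by -1.58 ± 0.26 (SE, adjusted p = 0.00108, edgeR). Rps27 had the lowest value of the group, -2.17 ± 0.44 (SE), but its control footprint libraries stood apart at 31.0 and 90.7 CPM, against 18.4 and 22.1 CPM at 7 h. Rps27l stood at the other end of the group. Its mRNA encodes a close relative of Rps27 and is known as a p53 target. Footprints of Rps27l rose from 112 and 109 CPM to 259 and 256 CPM and its RNA from 97.0 and 98.8 CPM to 219 and 214 CPM, so that its TE differed from the control by 0.08 ± 0.23 (SE, adjusted p = 0.876, edgeR). Many ribosomal protein genes have near-identical processed pseudogenes, so how the authors' counting split reads among copies is uncertain.

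The starts of these mRNAs are shown because the TOP motif lies there. Each line gives 15 bases before and 15 bases from the first annotated base of the gene (RefSeq, GRCm38.p6), and capitals mark a run of 8 or more pyrimidines that begins with C. The first 4 are the ribosomal protein mRNAs with a run in the window whose TE fell most among those with 1 annotated start. The next 3 are those without one. The last 3 are other TOP mRNAs.
Rps27: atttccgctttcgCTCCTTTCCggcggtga
Rpl14: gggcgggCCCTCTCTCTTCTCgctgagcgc
Rpl31: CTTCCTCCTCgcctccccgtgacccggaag
Rpl27a: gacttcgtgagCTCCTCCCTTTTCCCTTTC
Rplp0: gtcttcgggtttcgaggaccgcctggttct
Rpsa: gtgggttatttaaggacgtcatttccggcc
Rpl12: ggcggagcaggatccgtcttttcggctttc
Eef1a1: gctggctccgCCCTCTTCCCgagggtgggg
Eef1b2: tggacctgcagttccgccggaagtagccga
Tpt1: gtcaccgctgacgacagttccgggggagcc

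The windows lie at chr3:90213634-90213663 (Rps27, minus strand), chr9:120571502-120571531 (Rpl14), chr1:39367836-39367865 (Rpl31), chr7:109519180-109519209 (Rpl27a), chr5:115559452-115559481 (Rplp0), chr9:120127751-120127780 (Rpsa), chr2:32961697-32961726 (Rpl12), chr9:78481710-78481739 (Eef1a1, minus strand), chr1:63176816-63176845 (Eef1b2) and chr14:75845241-75845270 (Tpt1), on the plus strand where no strand is given. TE changed by -2.17 for Rps27, -1.25 for Rpl14, -1.22 for Rpl31 and -1.21 for Rpl27a, all with a run in the window. The run of Rpl31 lies wholly before the first annotated base. It changed by -1.58 for Rplp0, -1.41 for Rpsa and -1.35 for Rpl12, all without. A run lay in the window of 28 of the 61 ribosomal protein genes with a RefSeq sequence (45.9%). The share was 12.3% of all tested genes with a sequence and 10.8% of all symbols with one, counting the sense strand only. Runs before the annotated start were counted too. The median TE change of ribosomal protein mRNAs was -1.09 with the run and -1.07 without. Outside the TOP genes, the run was present in 8.75% of genes with lower TE and 13.2% of genes with higher TE. Annotated starts can lie some bases from the true cap, so a run missing from a window says only that these letters are not there. Likewise, a run before the annotated start need not be part of the mRNA.

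The other TOP mRNAs tested encode elongation factors, some initiation factor subunits and a few further proteins. TE fell for 10 of these 21 and rose for none, with a median of -0.71. Eef1a1, which delivers aminoacyl-tRNA to the ribosome and had more footprints than any of these genes, went from 14150 and 14360 footprint CPM to 8562 and 9001 CPM. Its RNA rose from 6217 and 5938 CPM to 7794 and 7649 CPM, and TE fell by 1.04 ± 0.17 (SE, adjusted p = 0.00122, edgeR). TE also fell for the elongation factors Eef1b2 (-1.63 ± 0.20) and Eef2 (-1.01 ± 0.18) and for Tpt1, a translationally controlled tumour protein (-1.63 ± 0.20, SE, all past the threshold in edgeR). Pabpc1, the cytoplasmic poly(A)-binding protein, had 785 and 783 footprint CPM in the control and 509 and 375 CPM at 7 h on RNA that rose from 1220 and 1329 CPM to 2146 and 2302 CPM. Its TE fell by 1.63 ± 0.23 (SE, adjusted p = 0.000423, edgeR). Pabpc1 was also the one TOP mRNA called higher in TE at 7 h than at 2 h of H2O2, by 1.80 (adjusted p = 0.000887, edgeR).

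Initiation factors outside the TOP list moved less. TE fell for 4 of 38 and rose for 1, with a median of -0.33. Denr, a factor for reinitiation and ribosome recycling, was the lower call that held without each library in turn, at -0.80 ± 0.16 (SE, adjusted p = 0.00427, edgeR). Footprints of Denr were 79.7 and 79.3 CPM in the control and 63.4 and 65.5 CPM at 7 h, and RNA went from 95.8 and 108 CPM to 143 and 144 CPM. The lower calls for Eif4a1, Eif2b1 and Eif2b3 were each lost in 6 of the 8 fits with 1 library left out, each time without any of the 4 RNA libraries or footprint control replicate 2, and without footprint 7 h replicate 1 (Eif4a1, Eif2b3) or 2 (Eif2b1). The count of lower calls was 1 without any 1 RNA library, and without footprint 7 h replicate 1 or footprint control replicate 2 the count was 2. The higher call, Eif4ebp2, an inhibitor of the cap-binding factor eIF4E, had 8.69 and 7.54 footprint CPM in the control and 14.1 and 11.9 CPM at 7 h. Its TE change of 0.79 (adjusted p = 0.0440, edgeR) missed the threshold whenever 1 of the 8 libraries was left out.

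**Figure D2:**
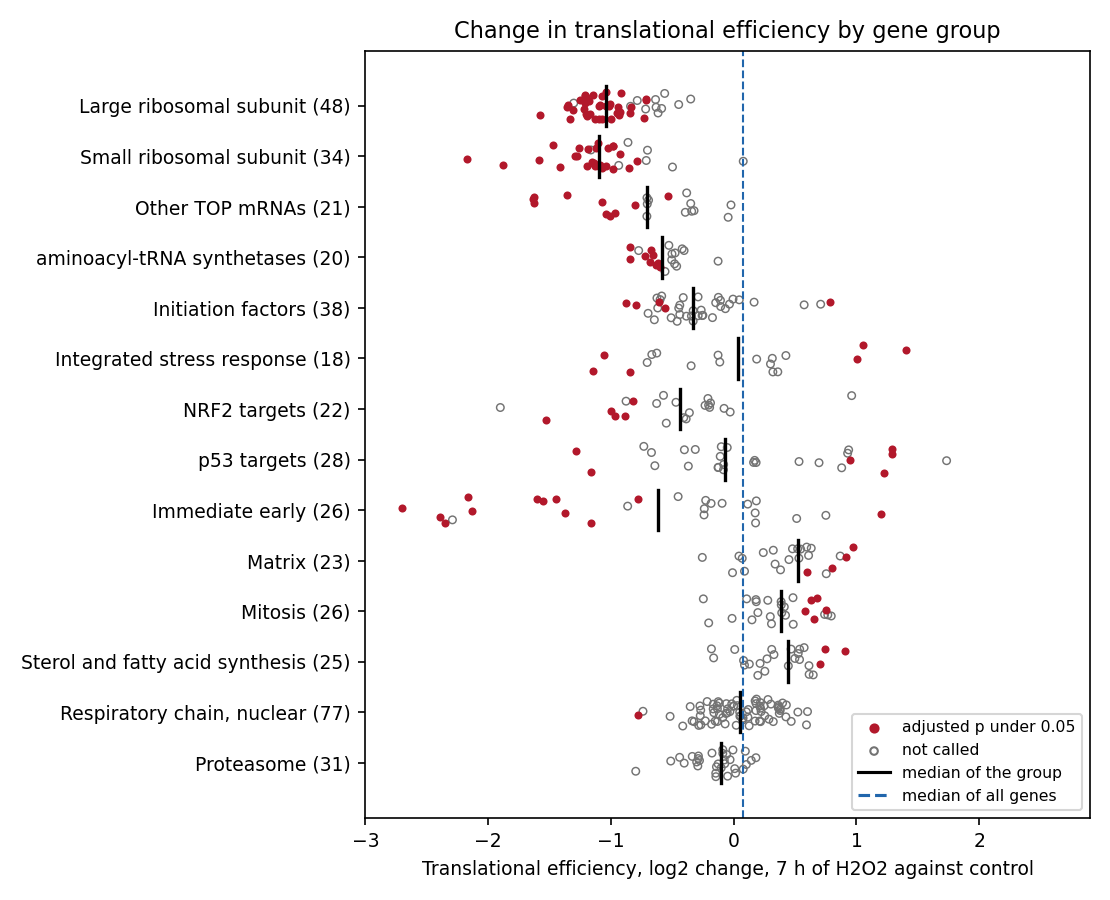
Log2 change in translational efficiency at 7 h of H2O2 (x axis) for each tested member of 14 gene groups (y axis, number of members in brackets), with members past an adjusted p of 0.05 in red, group medians as black bars and the median of all genes as a dashed line. The ribosomal protein groups lie almost entirely left of 0, matrix, mitosis and sterol genes lie mostly to its right, and immediate early genes spread from -2.70 to above 0.

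Cytosolic aminoacyl-tRNA synthetases, which load tRNAs with amino acids and many of which ATF4 induces, gave a second group with lower TE. TE fell for 9 of 20 and rose for none, with a median of -0.58, and all 20 values were below 0. Unlike the ribosomal proteins, 9 of these 20 had more footprints at 7 h and 5 had fewer, while RNA rose for 14. Nars, the synthetase for asparagine, had 433 and 480 footprint CPM in the control and 570 and 683 CPM at 7 h. RNA of Nars rose from 335 and 347 CPM to 833 and 849 CPM. Footprints and RNA were thus both higher without overlap, and TE fell by 0.84 ± 0.18 (SE, adjusted p = 0.00660, edgeR). Tars, the synthetase for threonine, went from 302 and 270 to 401 and 419 footprint CPM and from 174 and 181 to 415 and 425 RNA CPM, with a TE change of -0.73 ± 0.18 (SE, adjusted p = 0.0147, edgeR). Its call was lost without RNA 7 h replicate 1 or 2 or RNA control replicate 1, with adjusted p up to 0.0649. The number of synthetases called was 11 without footprint 7 h replicate 2 and lower in most other cases. It was 3 without footprint 7 h replicate 1 and 4 without footprint control replicate 2. Without RNA 7 h replicate 1 or 2 it was 2 or 1, and without RNA control replicate 1 or 2 it was 3 or 2. The group median stayed between -0.74 and -0.52.

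The mRNAs of the integrated stress response, which include those with upstream reading frames, did not move as one. TE rose for 3 of 18 and fell for 3, although footprints rose for 13 and RNA for 14. The counts were 1 and 1 without RNA control replicate 2, and 1 and 3 without footprint 7 h replicate 2. Ibtk, an inhibitor of a tyrosine kinase with upstream reading frames, went from 13.4 and 10.9 to 31.4 and 26.2 footprint CPM at RNA levels of 61.3 and 59.4 against 52.6 and 55.0 CPM. Its TE rose by 1.41 ± 0.25 (SE, adjusted p = 0.00233, edgeR). Ifrd1 had similar footprints in both groups, 128 and 115 against 91.9 and 131 CPM, on RNA that rose from 118 and 113 to 220 and 247 CPM, and TE fell by 1.14 ± 0.23 (SE, adjusted p = 0.00479, edgeR). Asns, asparagine synthetase, also fell, by 1.05 ± 0.24 (SE), with footprints of 188 and 241 against 408 and 478 CPM and RNA of 82.9 and 75.8 against 346 and 335 CPM. The call for Asns was lost without footprint 7 h replicate 1, footprint control replicate 2 or RNA control replicate 2, with adjusted p from 0.0533 to 0.0554.

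Atf4, the transcription factor of this response, had 43.7 and 49.7 footprint CPM in the control and 131 and 183 CPM at 7 h. Its RNA rose from 245 and 229 CPM to 641 and 638 CPM. Both rose without overlap, and the TE difference of 0.32 ± 0.23 (SE, adjusted p = 0.424, edgeR) did not pass the threshold. Tested directly, TE of Atf4 was 0.95 higher at 7 h of H2O2 than at 7 h of KCl (adjusted p = 0.0140, edgeR), a call lost without footprint 7 h replicate 2 or footprint KCl replicate 2. It was 0.86 lower than at 2 h of H2O2 (adjusted p = 0.0269, edgeR). That call was lost without footprint 2 h replicate 1, footprint 7 h replicate 1, either RNA 2 h replicate or either RNA 7 h replicate. Cebpb, a transcription factor translated from several start codons, rose in TE by 1.05 ± 0.23 (SE, adjusted p = 0.00828, edgeR), with 84.9 and 82.6 against 235 and 329 footprint CPM. Without footprint 7 h replicate 2 or RNA control replicate 2 its adjusted p was 0.0539 or 0.0541.

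Targets of p53, the transcription factor of the DNA damage response, had the largest median changes of the gene lists in both assays. Footprints rose for 26 of 28 with a median of 3.39, and RNA rose for 27 with a median of 3.12. TE rose for 4 and fell for 2, with a median of -0.067 that ranged from -0.19 to 0.34 over the alternatives run. Cdkn1a, the cell cycle inhibitor p21, went from 25.3 and 27.6 to 866 and 1233 footprint CPM. RNA of Cdkn1a went from 31.8 and 33.8 to 1389 and 1417 CPM, and TE differed by -0.11 ± 0.25 (SE, adjusted p = 0.835, edgeR). Mdm2, which marks p53 for degradation, went from 49.4 and 48.6 to 2035 and 3180 footprint CPM and from 78.7 and 76.8 to 2107 and 2392 RNA CPM. Its TE difference of 0.88 ± 0.32 (SE, adjusted p = 0.0954, edgeR) did not pass.

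Among the p53 targets with higher TE was Apaf1, which assembles the apoptosome. It had 25.3 and 19.3 footprint CPM in the control and 216 and 271 CPM at 7 h. RNA of Apaf1 rose from 58.4 and 57.7 to 247 and 270 CPM, and TE rose by 1.29 ± 0.21 (SE, adjusted p = 0.00115, edgeR). Phlda3, an inhibitor of the kinase AKT, went from 8.19 and 11.2 to 122 and 152 footprint CPM and from 37.1 and 37.1 to 219 and 234 RNA CPM, with a TE rise of 1.23 ± 0.25 (SE, adjusted p = 0.00496, edgeR). Polk, a DNA polymerase that copies past lesions, rose in TE by 0.95 ± 0.21 (SE), a call lost without footprint control replicate 1 (adjusted p = 0.0578, edgeR). The rise of Sesn1 was lost without each library except footprint control replicate 2. The 2 falls were Plk3 and Aen. Both were lost without footprint 7 h replicate 1, footprint control replicate 2, RNA 7 h replicate 2 or either RNA control replicate, and Aen also without RNA 7 h replicate 1.

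Targets of NRF2, the regulator of antioxidant genes, were mostly more abundant as RNA, 16 of 22 called higher, with TE fallen for 5 and risen for none. The median TE change was -0.44. Abcc1, an exporter of glutathione conjugates, had 293 and 302 footprint CPM in the control and 294 and 291 CPM at 7 h. RNA of Abcc1 rose from 218 and 220 to 399 and 396 CPM, and TE fell by 0.88 ± 0.15 (SE, adjusted p = 0.00155, edgeR). Slc7a11, the cystine importer, rose in footprints from 15.6 and 9.49 to 67.4 and 79.8 CPM and in RNA from 8.61 and 9.38 to 143 and 157 CPM, so that TE fell by 1.53 ± 0.37 (SE, adjusted p = 0.0145, edgeR). Without footprint control replicate 1 or RNA control replicate 1 that call was lost (adjusted p = 0.166 and 0.0542). The other 3 falls were Nqo1, Gclm and Fth1. The calls for Gclm and Fth1 were lost whenever 1 of the 8 libraries was left out, and that for Nqo1 without each library except footprint 7 h replicate 2 and footprint control replicate 1. The count of 5 was 1 without RNA control replicate 1 and 2 without footprint 7 h replicate 1, footprint control replicate 2, either RNA 7 h replicate or RNA control replicate 2.

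Fth1, the ferritin heavy chain, carries an iron-responsive element, and it was the one call among the 6 tested mRNAs with such an element. It had 119 and 129 footprint CPM in the control and 150 and 174 CPM at 7 h, while RNA rose from 618 and 627 to 1694 and 1554 CPM. The TE change was -0.998 (SE 0.31, adjusted p = 0.0484, edgeR). Against KCl at 7 h, TE of Fth1 was lower by 1.86 (adjusted p = 0.00119, edgeR), a call that held under all 21 alternatives run. Of 17 tested selenoproteins, TE rose for 3 and fell for none, with a median of 0.38. They were Gpx1, Selenoh and Sepn1, and the last 2 lost their calls in 7 and 5 of the 8 fits that left out 1 library. Selenoh kept it without footprint 7 h replicate 1, and Sepn1 without footprint control replicate 2, RNA 7 h replicate 2 or RNA control replicate 2. Gpx1, a glutathione peroxidase, went from 54.3 and 60.3 to 81.8 and 74.6 footprint CPM while its RNA fell from 121 and 117 to 85.0 and 78.9 CPM. TE of Gpx1 rose by 0.99 ± 0.23 (SE, adjusted p = 0.0124, edgeR). The call was lost without footprint 7 h replicate 1 or RNA 7 h replicate 2, with adjusted p of 0.0666 and 0.0534.

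**Figure D3:**
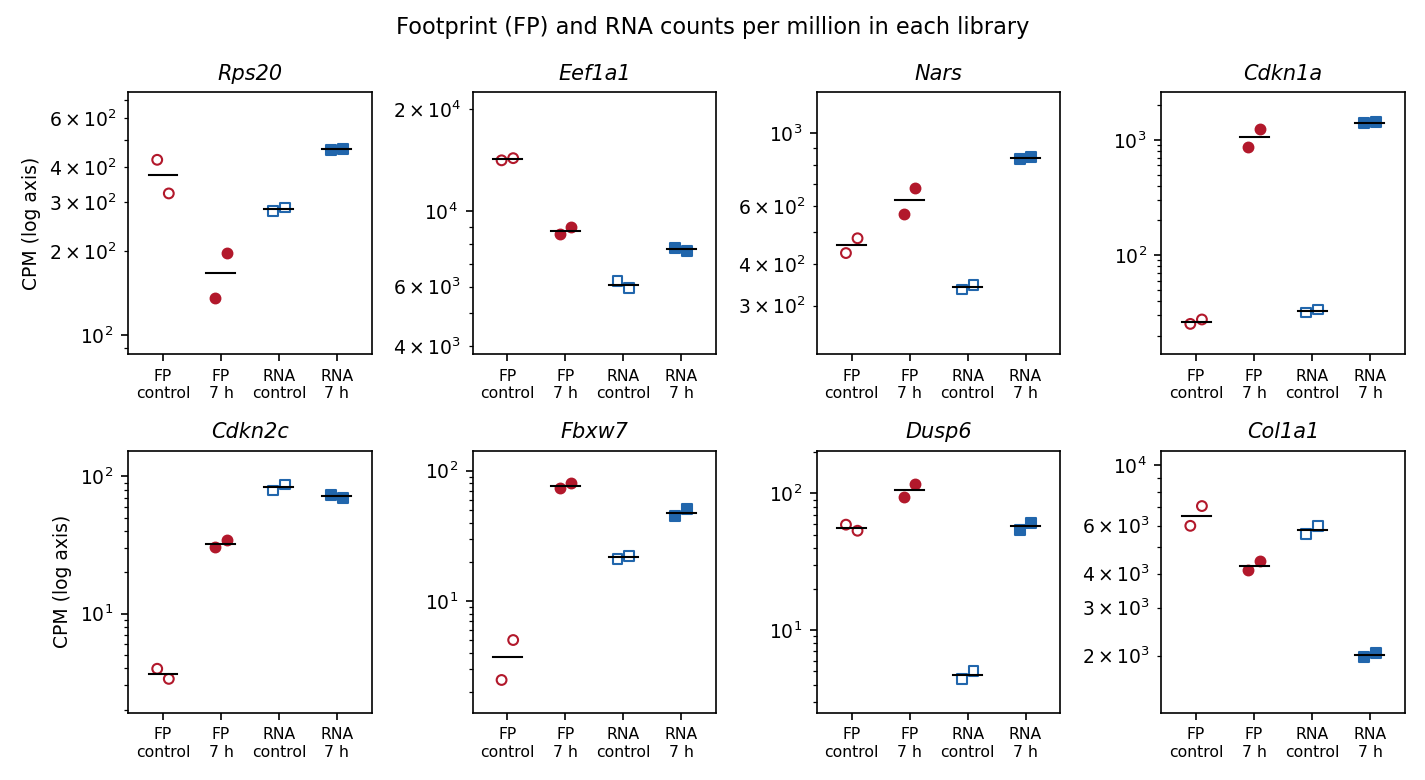
CPM (counts scaled to the library total, y axes, log scale) in each footprint (FP, circles) and RNA (squares) library of the control (open) and 7 h of H2O2 (filled) for 8 genes, with group means as bars. Rps20 and Eef1a1 show fewer footprints on more RNA, Cdkn1a rises in both assays, and footprints of Cdkn2c rise from 3.97 and 3.35 to 30.5 and 34.4 at nearly level RNA.

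Immediate early genes, whose short-lived mRNAs appear soon after a stimulus, held the largest falls of the gene lists. TE fell for 11 of 26 and rose for 1, Dusp1, with a median of -0.61. The call for Dusp1 was lost without footprint 7 h replicate 2, footprint control replicate 1, RNA 7 h replicate 1 or either RNA control replicate. RNA rose for 20 of them. Myc, a transcription factor of growth and ribosome production, had 314 and 296 footprint CPM in the control and 218 and 253 CPM at 7 h. RNA of Myc rose from 35.6 and 41.8 to 148 and 165 CPM, and TE fell by 2.39 ± 0.29 (SE, adjusted p = 0.000135, edgeR). Dusp5, a phosphatase of the kinase ERK, had 94.0 and 150 against 124 and 149 footprint CPM on RNA that rose from 7.46 and 8.72 to 40.1 and 41.0 CPM, a TE change of -2.17 ± 0.27 (SE, adjusted p = 0.000152, edgeR). Fosl1, an AP-1 subunit, rose in both assays, from 107 and 187 to 241 and 337 footprint CPM and from 29.8 and 34.6 to 276 and 279 RNA CPM. Its TE fell by 2.13 ± 0.27 (SE, adjusted p = 0.000152, edgeR). The calls for Dusp6, Myc, Dusp5, Fosl1, Ier3 and Jun held under all 21 alternatives run.

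These genes started from a high ratio in the control. The control footprint-to-RNA ratio in TPM was 12.8 for Dusp6, 6.38 for Dusp5 and 6.12 for Myc, with a median of 1.96 over the group, against a median of 0.644 over all genes. Genes with lower TE had a median control ratio of 1.17 and genes with higher TE one of 0.415. The sources used here do not say whether footprints were assigned to whole transcripts or to coding regions, which bears on the lengths behind these ratios and on comparing them between genes. The control ratio is the reference of the TE change itself, so the 2 are not independent. Compared directly with 2 h of H2O2, TE of immediate early genes was called higher for 1 gene, Atf3 (by 1.42), and lower for none at 7 h, with a median of 0.049. The call for Atf3 was lost without footprint 7 h replicate 2, RNA 2 h replicate 2 or RNA 7 h replicate 1. Against the shared control the group median was -0.79 for H2O2 at 2 h and -0.87 for KCl at 7 h. Against KCl at 7 h, TE was lower for Myc by 1.46 and for Fosl1 by 1.26 (adjusted p = 0.00391 and 0.00928, edgeR). It was higher for Fosl2, Junb and Fos, by 0.77, 1.15 and 1.32. These calls were lost without RNA 7 h replicate 1 for Fosl2, without footprint KCl replicate 2 for Junb, and for Fos without any library of the 8 other than footprint 7 h replicate 1 and RNA 7 h replicate 2.

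In several groups RNA fell more than footprints. Matrix genes had less RNA for 16 of 23 and fewer footprints for 7, and TE rose for 4 and fell for none, with a median of 0.52. Col1a1, a chain of type I collagen, went from 5989 and 7078 to 4119 and 4440 footprint CPM while its RNA fell from 5604 and 5968 to 1974 and 2054 CPM. TE of Col1a1 rose by 0.91 ± 0.21 (SE, adjusted p = 0.0101, edgeR). Its partner chain Col1a2 went from 3028 and 2877 to 1749 and 1881 footprint CPM and from 2712 and 2695 to 833 and 860 RNA CPM, a TE rise of 0.97 ± 0.20 (SE, adjusted p = 0.00543, edgeR). Both assays fell for both chains without overlap. The other calls were Lox, lost without replicate 2 of either footprint group or replicate 1 of either RNA group, and Col5a2, kept without footprint 7 h replicate 1 or footprint control replicate 2 and lost without each of the other 6 libraries. The matrix count was 2 without footprint 7 h replicate 2, RNA 7 h replicate 1 or RNA control replicate 1.

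Mitotic genes had less RNA for 24 of 26 and fewer footprints for 20, with TE risen for 5 and fallen for none, and a median of 0.39. Ccnb2, a mitotic cyclin, fell from 126 and 104 to 47.5 and 47.5 footprint CPM and from 104 and 105 to 25.9 and 25.1 RNA CPM. Its TE rose by 0.75 ± 0.17 (SE, adjusted p = 0.0101, edgeR). Genes of sterol and fatty acid synthesis had less RNA for 24 of 25 and fewer footprints for 22, with TE risen for 3 and a median of 0.44. One of them, Insig1, which holds back sterol synthesis, fell from 55.3 and 58.6 to 22.8 and 25.6 footprint CPM and from 243 and 234 to 54.4 and 53.6 RNA CPM, with a TE change of 0.91 ± 0.26 (SE, adjusted p = 0.0353, edgeR). That call was lost whenever 1 of the 8 libraries was left out. Nsdhl, an enzyme of cholesterol synthesis, was also called. The count was 0 without either footprint 7 h replicate, RNA 7 h replicate 2 or RNA control replicate 1, and 1 without any of the other 4 libraries. Beside Ccnb2, the mitotic calls were Ccnb1, Aurkb, Bub1b and Ube2c, each lost in at least 6 of these fits. The mitotic count was 4 without replicate 2 of either footprint group, 2 without RNA 7 h replicate 1 and 1 without any of the other 5 libraries.

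The 15 largest rises, among genes with at least 20 footprint counts over the control libraries and ratios that did not overlap in any combination of libraries, were Cdkn2c, Fbxw7, Cemip, Hspa1a, Tnfaip6, Hoxd10, Arhgef10l, Rgcc, Ccng2, Mylip, Bmp2, Bmp4, Plin4, Rcan2 and Mxi1. Over all genes tested, ratios were separate in this way for 25.6% (higher) and 17.9% (lower). Of the 937 called genes with these counts, 480 were separate and higher and 457 separate and lower. The condition on overlap thus removed no called gene and adds no support to the calls. Cdkn2c, which encodes the cyclin-dependent kinase inhibitor p18, had 3.97 and 3.35 footprint CPM in the control and 30.5 and 34.4 CPM at 7 h. RNA of Cdkn2c was at 79.0 and 87.5 against 73.2 and 70.1 CPM. TE of Cdkn2c rose 10.2-fold (log2 3.35 ± 0.26 SE, adjusted p = 2.01e-06, edgeR). Fbxw7, a ubiquitin ligase subunit that targets cyclin E and Myc, went from 2.48 and 5.03 to 73.8 and 80.1 footprint CPM on RNA that went from 20.9 and 22.3 to 44.9 and 50.6 CPM, with a TE rise of 3.24 ± 0.31 (SE, adjusted p = 2.19e-05, edgeR). Both control footprint levels were low, at 16 and 12 counts for Cdkn2c and 10 and 18 for Fbxw7.

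The other rises without a fall in RNA all had more footprints, at level or rising RNA. Hoxd10, a homeobox factor, went from 3.23 and 3.63 to 23.9 and 26.5 footprint CPM, and Arhgef10l, a guanine nucleotide exchange factor, from 13.4 and 11.7 to 85.6 and 114 CPM. Their TE rose by 2.59 ± 0.28 and 2.42 ± 0.26 (SE, adjusted p = 0.000100 for both, edgeR). Plin4, a lipid droplet protein, rose in TE by 2.13 ± 0.35, and Mxi1, which opposes Myc, by 2.08 ± 0.34 (SE, adjusted p = 0.00108 and 0.00109, edgeR). Mxi1 had 18 and 5 control footprint counts, and its TE change ran from 1.52 to 3.17 with 1 library left out. Rgcc, a cell cycle regulator, had control footprints that stood apart at 6.70 and 0.837 CPM, and its call was lost in 4 of the 8 fits that left out 1 library: without footprint 7 h replicate 2, footprint control replicate 2, RNA 7 h replicate 1 or RNA control replicate 1. Hspa1a and Hspa1b, near-identical genes for inducible HSP70, rose by 2.66 ± 0.46 and 2.01 ± 0.31 (SE, edgeR), and how reads were split between them is uncertain.

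In 7 of the 15 rises RNA fell. Bmp4, a secreted growth factor, kept 10.9 and 12.0 footprint CPM in the control and 11.2 and 10.5 CPM at 7 h while its RNA fell from 71.8 and 72.3 to 16.8 and 14.3 CPM. Its TE rose by 2.14 ± 0.35 (SE, adjusted p = 0.00114, edgeR). RNA likewise fell for Bmp2, Cemip, Tnfaip6, Rcan2, Mylip and Ccng2, and footprints were called higher only for Ccng2 of these 7. Each call was lost without 1 library for Cemip and Tnfaip6 (footprint 7 h replicate 1, adjusted p = 0.0912 and 0.104) and for Bmp2 and Rcan2 (footprint 7 h replicate 2, adjusted p = 0.0958 and 0.179). The call for Mylip was lost without any 1 of the 8 libraries. Tnfaip6 had only 13 and 10 footprint counts and 15 and 13 RNA counts at 7 h.

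The 15 largest falls were Eno1b, Sema7a, Areg, Prl2c2, Stbd1, Rgs16, Htr1b, Cnbd2, Lif, Dusp6, Spry4, Phlda1, Aldh1a3, Arc and Fam84b. RNA rose for 12 of them, and footprints fell for 5. Sema7a, a membrane-anchored semaphorin, had 103 and 48.6 footprint CPM in the control and 27.7 and 15.4 CPM at 7 h. Its RNA rose from 2.12 and 2.27 to 12.5 and 12.8 CPM, and TE fell by 4.35 ± 0.50 (SE, adjusted p = 0.000135, edgeR). Areg, a ligand of the EGF receptor, rose in footprints from 19.9 and 11.4 to 57.9 and 49.8 CPM and far more in RNA, from 1.19 and 1.22 to 43.0 and 46.0 CPM, with a TE change of -3.44 ± 0.41 (SE, adjusted p = 0.000135, edgeR).

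Lif, a cytokine of the IL-6 family, likewise had more footprints, 49.4 and 30.7 against 162 and 153 CPM, on RNA that rose from 13.5 and 17.6 to 366 and 456 CPM. TE of Lif fell by 2.76 ± 0.43 (SE, adjusted p = 0.000775, edgeR). TE changed by -2.70 ± 0.39 for Dusp6, a phosphatase of ERK, and by -2.63 ± 0.39 for Spry4, an inhibitor of growth factor signalling (SE, adjusted p = 0.000499 and 0.000572, edgeR). Dusp6 had 59.1 and 53.3 against 94.5 and 116 footprint CPM, and 4.40 and 5.04 against 54.4 and 60.4 RNA CPM. Phlda1 had 271 and 524 against 424 and 420 footprint CPM while its RNA rose from 16.9 and 23.1 to 112 and 137 CPM. The control ratios of these genes were high, at 26.6 for Sema7a, 9.22 for Areg, 8.78 for Lif, 11.0 for Spry4 and 13.9 for Phlda1.

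Some of the falls rest on few counts or unusual ratios. Eno1b, a near-identical copy of the glycolytic gene Eno1, had 28 and 58 footprint counts in the control and none at 7 h, at least 26.6-fold lower when 3 counts are allowed over the stressed group. How reads were split between the copies is uncertain, and the fitted TE call of Eno1b was lost in 5 of the 8 fits that left out 1 library: without footprint 7 h replicate 1 or 2, footprint control replicate 2, RNA 7 h replicate 1 or RNA control replicate 1. Cnbd2 had 119 and 148 against 98.0 and 136 footprint CPM on RNA of 3.54 and 2.75 against 19.9 and 18.6 CPM, a control ratio of 46.7. The call for Prl2c2 was lost without each library except footprint control replicate 1. Those for Rgs16 and Aldh1a3 were lost without footprint control replicate 1 (adjusted p = 0.0921 and 0.0656), and that for Fam84b without footprint control replicate 2 (adjusted p = 0.233). Stbd1, Htr1b and Arc completed the list, with TE changes of -2.84, -2.79 and -2.48. Stbd1 had 16 and 10 footprint counts in the control and 5 and 13 at 7 h, with footprints not called. Its control RNA counts were 20 and 21. Htr1b had 36 and 38 footprint counts in the control and 13 and 3 at 7 h. Its RNA counts were 21 and 21 against 29 and 19.

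The counts in the other groups are to be read beside the shares over all genes tested, 5.06% higher and 4.4% lower. Among mRNAs of cytosolic chaperones, TE rose for 2 of 28 (Hspa1a and Hspa1b) and fell for 3. TE of Hspa8, the constitutive HSP70, fell by 0.60 (adjusted p = 0.0373, edgeR), a call that held without footprint 7 h replicate 1 or footprint control replicate 1 and was lost without each of the other 6 libraries. The other falls, Dnajb4 and Cct4, were each lost in 6 of the 8 fits with 1 library left out. Those that kept them were the ones without footprint 7 h replicate 1 or footprint control replicate 2 for Dnajb4, and without footprint 7 h replicate 2 or footprint control replicate 1 for Cct4. One of 22 ER chaperones rose, Sdf2l1 by 1.13 ± 0.22 (SE, adjusted p = 0.00324, edgeR), from 25.3 and 31.8 to 45.0 and 39.3 footprint CPM on RNA that fell from 26.0 and 26.4 to 17.2 and 18.2 CPM. Of 35 lysosome and autophagy genes TE rose for 3 (Ulk1, Map1lc3b and Npc1) and fell for none. That count was 1 without footprint 7 h replicate 2, RNA 7 h replicate 2 or RNA control replicate 1, and 2 without footprint 7 h replicate 1, footprint control replicate 2, RNA 7 h replicate 1 or RNA control replicate 2. Ulk1, the kinase that starts autophagy, went from 13.9 and 15.9 to 162 and 215 footprint CPM and from 66.7 and 66.6 to 326 and 328 RNA CPM, a TE rise of 1.37 ± 0.25 (SE, adjusted p = 0.00275, edgeR). Of 12 polyamine genes, TE fell for 2 (Srm and Azin1) and rose for 2 (Oaz1 and Azin2). Each of these 4 calls was lost in 6 of the 8 fits with 1 library left out. The 2 omissions that kept it were footprint 7 h replicate 2 and footprint control replicate 1 for Srm, replicate 2 of both footprint groups for Azin1, footprint 7 h replicate 1 and footprint control replicate 2 for Oaz1, and footprint 7 h replicate 1 and RNA control replicate 1 for Azin2.

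Nuclear genes of the respiratory chain had 1 lower call of 77 (Cox7a2l) and no higher one, with a median of 0.049. Mitochondrial ribosomal proteins had 2 lower of 78 (Mrpl15 and Mrpl32) and SR and hnRNP splicing factors 2 lower of 34 (Srsf7 and Syncrip). Of these 5 calls, Syncrip was lost without RNA 7 h replicate 2 or RNA control replicate 1, and the others were each lost in at least 6 of the 8 fits with 1 library left out. The proteasome (31 genes), glycolysis (15) and DNA replication (33) had no call by edgeR. In each of these 3 groups 3 genes had an unadjusted p under 0.05 and DESeq2 called 1. Of 12 tested replication-dependent histones 1 rose, Hist1h1c, a call lost without RNA 7 h replicate 1 (adjusted p = 0.0579, edgeR), but most of these mRNAs lack a poly(A) tail and the RNA was polyA-selected. The median control ratio of this group was 521, so its TE values are hard to interpret. The 13 mRNAs of the mitochondrial genome had 12 lower calls in footprints, with a median of -2.27, and 13 in RNA, with a median of -1.91. None was called in TE by edgeR or DESeq2, and 0 had an unadjusted p under 0.05. They are translated by mitochondrial ribosomes, and their median control ratio was 0.035. Of the noncoding host RNAs 1 was tested and it was not called.

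TE at 7 h of H2O2 was then set directly against the 2 h time and against KCl for 7 h, tests in which the control plays no part. Both comparisons share the 7 h H2O2 libraries. Footprint libraries at 2 h of H2O2 held 1460751 and 5168537 expected counts, and those at 7 h of KCl 2884344 and 3775978. The 2 h footprint pair correlated at 0.961 in log2 CPM, the lowest of the 10 groups. Against 2 h, 809 genes were called (7.74%), 594 higher (5.68%) and 215 lower (2.06%). Against KCl, 1287 were called (12.3%), 815 higher (7.79%) and 472 lower (4.51%).

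Ribosomal protein mRNAs had lower TE at 7 h of H2O2 in both tests. It was lower than at 2 h for 42 of 82 (median -0.76) and lower than in KCl for 46 (median -0.76), and higher for none. The count against 2 h fell to 20 without footprint 7 h replicate 1, to 13 or 23 without RNA 7 h replicate 1 or 2, and to 21 or 14 without RNA 2 h replicate 1 or 2. The count against KCl fell to 22 without footprint 7 h replicate 1, to 18 without footprint KCl replicate 2, to 17 or 27 without RNA 7 h replicate 1 or 2, and to 15 without RNA KCl replicate 2. The medians stayed between -0.95 and -0.61 in these fits. Rpl36a was among the clearest, lower by 1.24 against 2 h and by 1.25 against KCl (adjusted p = 0.00277 and 0.00119, edgeR). Against the shared control, the group medians were -0.22 for H2O2 at 2 h and -0.32 for KCl at 7 h.

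For the synthetases, TE was lower than in KCl for 13 of 20 (median -0.78) and lower than at 2 h for 2 (Mars and Wars). The latter count was 1 without either footprint 2 h replicate, footprint 7 h replicate 1, RNA 2 h replicate 1 or RNA 7 h replicate 2, and 0 without RNA 2 h replicate 2 or RNA 7 h replicate 1. Nars was lower than in KCl by 1.12 and Wars by 1.05 (adjusted p = 0.00108 and 0.00162, edgeR). Matrix genes were higher than in KCl for 7 of 23 and higher than at 2 h for 4, with 0 to 6 of the latter when 1 library was left out. The count against KCl was 5 without footprint 7 h or KCl replicate 1, 3 without footprint 7 h replicate 2 or RNA KCl replicate 1, and 2 without footprint KCl replicate 2, either RNA 7 h replicate or RNA KCl replicate 2. The count against 2 h was 6 without footprint 2 h replicate 2, 2 without RNA 2 h replicate 1, and 0 without footprint 7 h replicate 2, RNA 2 h replicate 2 or either RNA 7 h replicate. Col4a2, a chain of basement membrane collagen, was higher than in KCl by 1.27 (adjusted p = 0.00269, edgeR). The rises of Cdkn2c, Fbxw7, Hoxd10, Arhgef10l and Plin4 were also higher than at 2 h and in KCl. Fbxw7 exceeded 2 h by 3.14 and KCl by 3.43 (adjusted p = 6.70e-05 and 2.39e-05, edgeR), and Ulk1 exceeded them by 1.23 and 1.65 (adjusted p = 0.0119 and 0.00103, edgeR). The call for Ulk1 against 2 h was lost without RNA 7 h replicate 1.

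**Figure D4:**
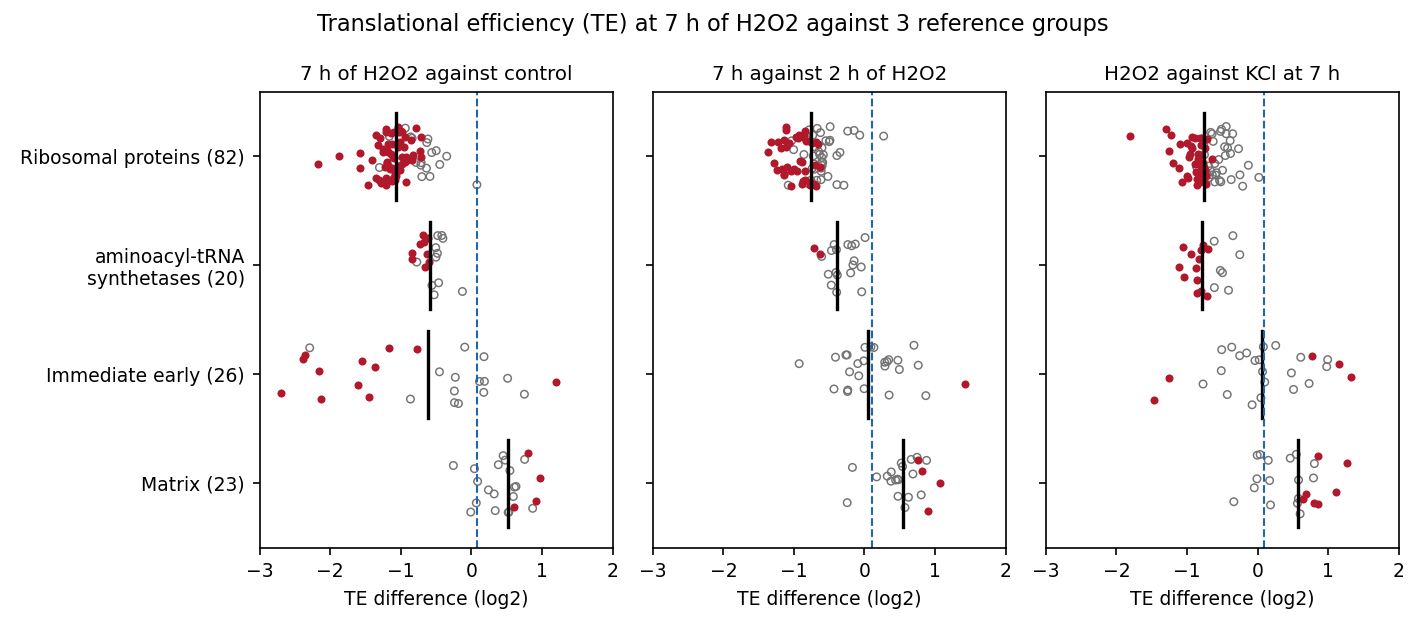
Log2 difference in translational efficiency (x axes) of each member of 4 gene groups at 7 h of H2O2 against the control, against 2 h of H2O2 and against 7 h of KCl, with members past an adjusted p of 0.05 in red, group medians as black bars and the median of all genes as dashed lines. Ribosomal proteins lie mostly left of the dashed line in all 3 panels (medians -1.07, -0.76 and -0.76), while immediate early genes do so against the control (-0.61) but not against 2 h (0.049).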

How the data were processed

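RNA and footprint libraries of NIH3T3 cells were compared with 2 labelled replicates per group. The authors deposited expected counts per gene and TPM values (scaled to a fixed total after division by transcript length). Per the submitters' processing notes, STAR, RSEM, Bowtie and mm10 were used, with neither roles nor versions stated there. The deposited expected counts were whole numbers. Read-in calls (true or false per pair of neighbouring genes) were deposited by the authors without their rule. There were 12 more sample columns, tied to none of the labels, and these were left out.

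Rows carrying a second symbol of one gene (101) were summed, leaving 19855 genes in both assays. TE was tested as an interaction with edgeR 4.0.16 (R 4.3.3), quasi-likelihood F test, over 20 libraries in 10 groups, with TMM factors and filterByExpr within each assay, Benjamini-Hochberg adjustment and a threshold of 0.05. One spread per gene served both assays. A separate fit of the RNA groups compared gave 9550 RNA calls, over 12447 genes tested. One of the footprint groups compared gave fewer footprint calls than the shared fit, 3356 over 10272 genes tested. Alternatives used DESeq2 1.42.0, limma 3.58.1, other scalings, filters, TPM scales, replicate blocks and each library left out. The TE fit was also run on data simulated with the same spread per gene for both assays. That run cannot test whether 1 spread suits both. CPM values are counts scaled by library total and TMM factor.

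Genes named were members of gene lists, and the 15 largest rises and falls among called genes with at least 20 control footprint counts and non-overlapping ratios. Genes given for the tests against 2 h and KCl were chosen after their values were seen. Members and lists were chosen with earlier results of these data known. Total counts given as ranges are over the 8 libraries, and 2 libraries per group limit the precision. Some single-gene results are not reported here.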

Additional observations from a re-analysis of the deposited data

Results flagged for a closer look

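The change in TE at 7 h of H2O2 was tested directly against that at 2 h of H2O2 and against that at 7 h of KCl, with edgeR's quasi-likelihood test and Benjamini-Hochberg adjustment. It differed for 809 genes between 7 h and 2 h and for 1287 genes between H2O2 and KCl. The largest rises and falls were ranked with the same 7 h H2O2 libraries, so these tests are not independent of that ranking. Of the genes with the largest rises, TE exceeded that at 2 h for Cdkn2c (log2 difference 2.34), Fbxw7 (3.14), Hoxd10 (1.77), Arhgef10l (2.12) and Plin4 (1.71). It exceeded that in KCl for Cdkn2c (2.55), Fbxw7 (3.43), Hoxd10 (1.31), Arhgef10l (2.13), Ccng2 (1.23), Bmp2 (1.58) and Plin4 (1.30). The calls against 2 h and KCl held under all 21 alternatives run for Cdkn2c, Fbxw7 and Arhgef10l. With 1 library left out, Hoxd10 against 2 h was lost without footprint 2 h replicate 2. Against KCl, Ccng2 and Bmp2 were lost without footprint 7 h replicate 2, Plin4 without footprint 7 h replicate 1, and Bmp2 and Plin4 without footprint KCl replicate 2.

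Of the genes with the largest falls, TE was lower than at 2 h for Stbd1 (-1.99) and Cnbd2 (-1.51) and lower than in KCl for Cnbd2 (-2.09). Lif went the other way, with TE above that at 2 h (1.51). The calls against 2 h were lost in 9 of 21 alternatives for Stbd1, 7 for Cnbd2 and 11 for Lif. With 1 library left out, Stbd1 was lost without footprint 2 h replicate 2, footprint 7 h replicate 1, either RNA 2 h replicate or RNA 7 h replicate 1. Cnbd2 was lost without footprint 7 h replicate 1 or any of the 4 RNA libraries, and Lif without each library except footprint 2 h replicate 2. Eno1b, with no footprint count at 7 h, is given by its counts only.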

How the results depend on the processing

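Ribosomal protein mRNAs kept a negative median and no higher call under all 21 alternatives run (median -1.23 to -0.90, 43 to 74 of 82 lower). The calls in TE at 7 h went from 989 to 642 with limma voom, 607 on the log2(TPM + 0.1) scale and 494 at a log2 change of at least 1, and to 484 to 927 with 1 library left out. DESeq2 gave 1419, which contained 979 of the 989. Footprint calls went from 4669 of 10457 genes to 3226 with limma voom and 2153 at a log2 change of at least 1. With the footprint groups compared fitted alone they went to 3356 of 10272. RNA calls went from 6239 of 10457 genes to 9550 of 12447 with the RNA groups compared fitted alone, which changed the groups, the shared spread and the genes tested at once, 4123 on log2(TPM + 1), 3853 on log2(TPM + 0.1) and 1928 at a change of at least 1. Calls between 7 h and 2 h went from 809 to 1303 (DESeq2), 350 (voom), 337 (groups compared alone), 365 (change of at least 1) and 150 to 1401 with 1 library left out, the highest without footprint 2 h replicate 2 and the lowest without RNA 7 h replicate 1. Calls between H2O2 and KCl went from 1287 to 760 (voom), 810 (log2(TPM + 0.1)), 625 (change of at least 1) and 540 to 1244 with 1 library left out, the lowest without footprint KCl 7 h replicate 2. The cause of these differences was not tested. The median of SR and hnRNP factors, -0.14, was 0.026 on log2(TPM + 1) and 0.028 on log2(TPM + 0.1). The difference of Cdkn1a, -0.11 and not called, was 0.057 and 0.044 on these scales and with 1 library left out it ran from -0.42 (without footprint 7 h replicate 2) to 0.086 (without footprint 7 h replicate 1).

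Deviations of same-numbered libraries correlated from -0.41 to 0.44 between groups. Footprints at 7 h correlated with the footprint control at 0.25 and with footprints at 2 h and 7 h of KCl at 0.22 and 0.19, but RNA at 7 h with the RNA control at 0.057. As not every pair was above 0.1, the numbers were not taken as pairs. A replicate block within each assay gave 1139 calls in TE at 7 h. A replicate block by group and number gave 378, with 167 between 7 h and 2 h and 492 between H2O2 and KCl. The block by group and number leaves fewer degrees of freedom, and it gave no value for footprints or RNA alone. Footprint libraries were the shallower, and 9795 of the 10457 genes had at least 20 control footprint counts.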

Other observations

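Nuclear genes of the respiratory chain had 1 call of 77 against the control at 7 h of H2O2, with a median of 0.049. At 2 h of H2O2, the median TE change of this group against the control was 0.40, where that of all genes was -0.016. It rests on 2 h footprint libraries of 1460751 and 5168537 expected counts. Over all genes, TE was lower at 7 h than at 2 h for 2.06%. In this group it was lower for 6 and higher for none, with a median of -0.33. The number was 17 without footprint 2 h replicate 2, 9 without footprint 7 h replicate 2, and 0 to 2 without any 1 of the other 6 libraries. Uqcrq, a subunit of complex III, was lower by 1.07 (adjusted p = 0.0257, edgeR). That call was lost in 9 of 21 alternatives, 6 of them with 1 library left out (either footprint 7 h replicate, either RNA 2 h replicate, footprint 2 h replicate 1 or RNA 7 h replicate 1).

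Read-in, transcription from an upstream gene that continues into its neighbour, was called by the authors for 48 genes in at least 1 of the 7 h H2O2 libraries, of which 33 were tested for TE. TE was called higher for 2, Irf9 and Rbm4, and lower for 1, Neurl2, by edgeR, with a median of 0.18. These counts are near the shares over all genes tested, 5.06% higher and 4.4% lower. The call for Rbm4 was lost without footprint 7 h replicate 1, footprint control replicate 2, RNA 7 h replicate 2 or either RNA control replicate, and that for Neurl2 without footprint 7 h replicate 1 or footprint control replicate 2. Neurl2 was also 1 of 2 tested genes with calls in both 7 h libraries and no control library.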
